A study of Mus musculus with 60 samples.

Results

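The cytosolic ribosomal protein genes were described in the cortex of 30 inbred mouse strains, with and without the antidepressant fluoxetine. Members were taken by symbol: Rpl or Rps followed by a number, Rplp0 to Rplp2 and Rpsa, without the Rps6k kinases and without pseudogenes named as such. Of 18193 genes with a probe set annotated to them alone, 46 met this rule: 22 of the large subunit, 22 of the small subunit, and the stalk genes Rplp0 and Rplp2. Each gene was read from its brightest probe set, a group of short probes on the array for 1 transcript, and 43 members passed a filter on low values (log2 intensity of at least 4 in at least 6 of 60 arrays). Rps4l follows the symbol rule but is classed as a transcribed pseudogene in the RefSeq table.

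The animals were male mice, 10 to 11 weeks old by their labels, of strains that carry no engineered allele in the labels. Each strain gave 1 water array (0 mg/kg) and 1 fluoxetine array (18 mg/kg per day by mouth for 21 days), 30 arrays in each group, and every array held cortical RNA pooled from 3 mice. The pools leave the spread between mice unmeasured, and the only replication of a treatment is across strains. An inbred strain is 1 genotype, so a difference between strains rests on 2 arrays of each.

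Ribosomes are made of ribosomal RNA and a large family of proteins, most of them present in 1 copy per ribosome. The small subunit reads the messenger RNA, the large subunit joins the amino acids, and the stalk proteins Rplp0, Rplp1 and Rplp2 recruit the elongation factors. Most of these messenger RNAs start with a run of pyrimidines, the 5' terminal oligopyrimidine tract, through which mTOR signalling adjusts their translation. Neurons hold ribosomes in the cell body, dendrites and axons, where local protein synthesis takes part in synaptic plasticity.

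The start of the gene is shown for members whose own probe sets include one that spanned at least 1 log2 between strain means, because the strain results below turn on them. By the brightest probe set alone, 6 of 43 members had such a span, against 27.4% of all genes tested. With every own probe set counted there were 10 such members, and the 8 with a RefSeq window are given. Each line holds 35 bases before and 20 bases from the RefSeq gene start (GRCm38.p6), on the gene's strand. Capitals mark the longest unbroken run of C and T that reaches within 20 bases of the start, where it has at least 7 bases, as in 5 of the 8.
Rpl13a, chr7:45128726-45128780, minus strand: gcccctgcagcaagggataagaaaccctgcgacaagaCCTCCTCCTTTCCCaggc
Rpl14, chr9:120571482-120571536, plus strand: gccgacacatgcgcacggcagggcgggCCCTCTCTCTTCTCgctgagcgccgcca
Rps2, chr17:24720028-24720082, plus strand: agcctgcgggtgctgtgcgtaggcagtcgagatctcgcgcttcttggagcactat
Rps3, chr7:99483690-99483744, minus strand: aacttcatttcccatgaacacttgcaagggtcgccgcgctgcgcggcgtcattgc
Rps6, chr4:86857348-86857402, minus strand: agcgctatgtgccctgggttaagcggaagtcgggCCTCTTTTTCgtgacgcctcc
Rps9, chr7:3704006-3704060, plus strand: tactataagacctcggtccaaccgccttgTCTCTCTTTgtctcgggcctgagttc
Rps25, chr9:44407679-44407733, plus strand: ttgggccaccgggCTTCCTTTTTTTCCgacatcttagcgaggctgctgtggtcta
Rpsa, chr9:120127731-120127785, plus strand: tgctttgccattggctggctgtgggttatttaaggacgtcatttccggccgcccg
RefSeq promoter windows (300 bases, 250 before the gene start) were matched for 40 of the 46 members. A run of at least 7 C or T that reaches within 20 bases of the start was found for 26 of these 40 (65.0%) and not for the other 14, against 33.7% of all 27025 genes with a window. The letters CCGGAA, the core bound by ETS family factors, stood on either strand of the window for 26 of 40 members (65.0%) and 16.7% of all genes. The letters CTTTCC, which can lie inside the pyrimidine run, stood there for 21 members (52.5%) and 29.3% of all genes, and AAGATGG, a YY1-like core, for 7 members (17.5%) and 7.28%. The TATA box letters TATAAA were found for 5 members (12.5%), against 15.7% of all genes. These matches describe letters in a window and not binding.

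Members were among the brighter probe sets of the array. Their median log2 intensity over 60 arrays was 13.52, against 9.27 for all 11886 genes tested, and 33 of the 43 lay at or above 12. Intensities of different probe sets depend on the probes as well as on RNA, so the order of members in the plot of levels is an order of probe sets. The 5 brightest were Rps29 (15.80), Rps28 (15.03), Rpl13a (14.98), Rpl4 (14.53) and Rpl37a (14.52), and the highest value of any probe set on any array was 16.14. The 5 dimmest were Rps27 (6.14), Rps4l (6.39), Rps25 (6.86), Rpl14 (6.90) and Rpl12 (7.22). For 8 of the 10 members under 12, other probe sets that list the member among several names were bright. Those that name Rpl14 had mean intensities from 12.78 to 13.02, and the probe set that names Rps25 had 14, but their signal was assigned to no gene here. Rpl39l, Rpl3l and Rps16 failed the filter. Their own probe sets had means of 2.07, 2.08 and 2.07, at or next to the lowest value in the data (2.07), which gives no level. Probe sets that list Rps16 among several names lay at 13.49 and 14.79.

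**Figure D1:**
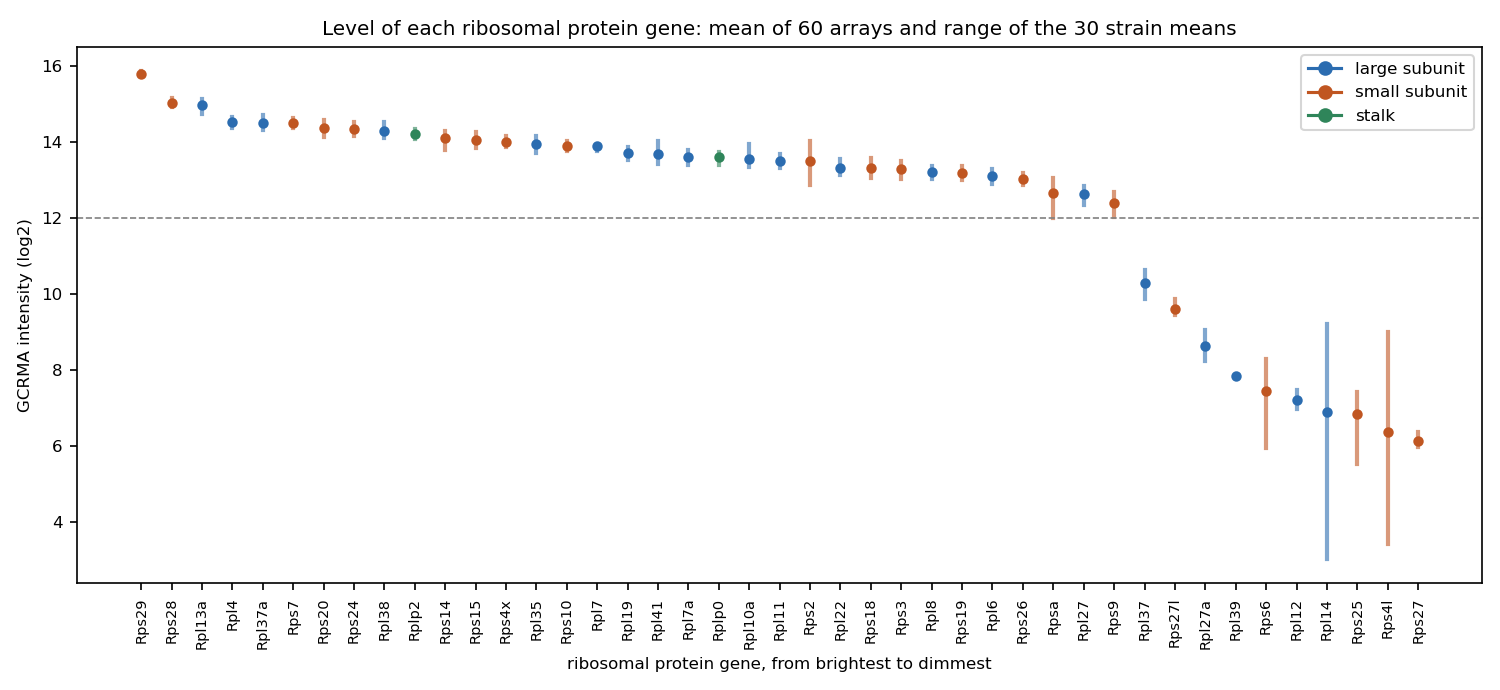
Mean GCRMA intensity (log2, vertical axis) of the 43 tested ribosomal protein genes over 60 arrays (points), with the range of the 30 strain means (bars), coloured by subunit and ordered from brightest to dimmest. The dashed line marks log2 12, which 33 members reach, and the long bars of Rpl14, Rps4l and Rps6 stand out among the dim probe sets.

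The question of the treatment is whether chronic fluoxetine changes expression in the cortex, and for the ribosomal protein genes no change was detected. Of 43 members, 0 passed an adjusted p under 0.05 in limma with strain as a block (0.0589% of all genes tested did), and 0 had an unadjusted p under 0.05, against 15.3% of all genes. The median difference over members was 0.0029, beside -0.0029 over all genes tested. Members ranged from -0.03 (Rps10) to 0.07 (Rps4l), and 27 of 43 differences were above 0. For 39 members the 95% interval lay within 0.1 log2 of 0, a span that held for 59.1% of all genes, and the 39 include all 33 members at log2 12 or above. Among all genes at that brightness the share was 85.6%.

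The stalk genes were measured in every array. Rplp0, the scaffold of the stalk and a common reference gene, ranged from 13.40 to 13.74 (median 13.60) on water and from 13.38 to 13.93 (median 13.63) on fluoxetine. The ranges overlap, with 5 fluoxetine arrays above the highest water array, and Rplp0 was higher with fluoxetine in 18 strains and lower in 12. Its difference of 0.04 (SE 0.0213, 2.97%) had the lowest unadjusted p of the members, 0.0557, and an adjusted p of 0.342 in limma over 30 strain pairs. Rplp2, which binds the elongation factors through its flexible end, differed by 0.01 (95% interval -0.02 to 0.04).

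In the small subunit, Rps6 is the classic substrate of the S6 kinases below mTOR. Its own probe set ranged from 6.02 to 8.27 (median 7.79) on water and from 5.64 to 8.41 (median 7.83) on fluoxetine, a difference of 0.04 (adjusted p = 0.607, limma). Rps9, a protein of early small subunit assembly, had medians of 12.43 and 12.41, and was higher with fluoxetine in 21 of 30 strains, with a difference of 0.04 (adjusted p = 0.407, limma). The sign for Rps9 was the other way (-0.0039) when all its own probe sets were averaged, including 1 near the floor of the data (mean 2.55). Rps10 was lower with fluoxetine in 19 of 30 strains, by -0.03 (adjusted p = 0.359, limma), with medians of 13.92 and 13.89. Rps7 differed by -0.01, and by 0.0035 with its probe sets averaged. Rps4l had the largest difference, 0.07, but with an interval from -0.11 to 0.25 and 15 strains on either side of 0. Rps19, the gene most often mutated in Diamond-Blackfan anaemia, had a median of 13.20 in both groups, and Rpsa, the laminin receptor protein of the small subunit, had medians of 12.63 and 12.68, each with a 95% interval between -0.04 and 0.04.

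In the large subunit, Rpl22, a protein that most cells can do without, ranged from 13.07 to 13.59 (median 13.29) on water and from 13.18 to 13.54 (median 13.31) on fluoxetine. It was higher with fluoxetine in 20 of 30 strains, by 0.03 (adjusted p = 0.359, limma). Rpl11, which with Rpl5 binds Mdm2 when ribosome assembly fails, had medians of 13.55 and 13.54 and a 95% interval from -0.04 to 0.04. Rpl5 has no probe set of its own among the genes used here. The larger differences below 0 were those of Rpl14 (-0.03, interval -0.11 to 0.06) and Rpl41 (-0.02, interval -0.06 to 0.02), the gene of a very short basic peptide. None of these differences had an adjusted p under 0.05 in limma.

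**Figure D2:**
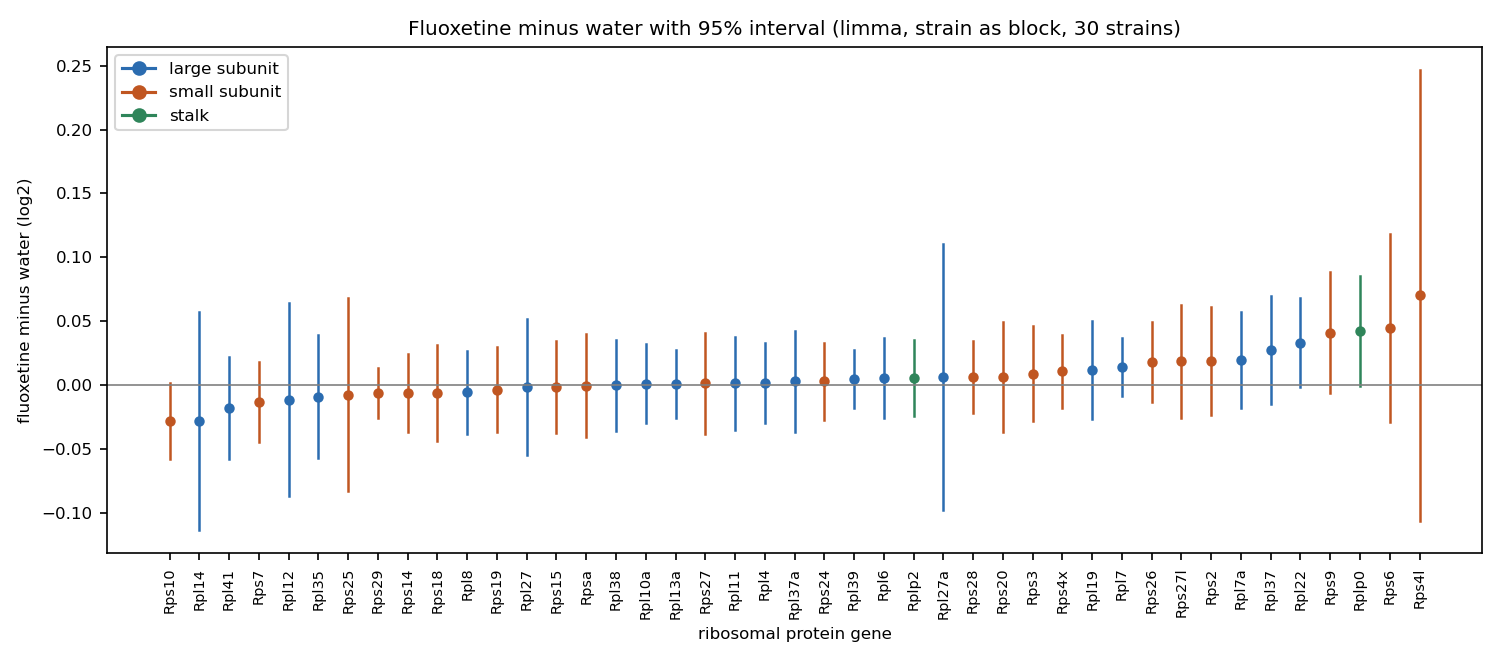
Fluoxetine minus water (log2, vertical axis) for each of the 43 ribosomal protein genes, as points with 95% intervals from limma with strain as a block, coloured by subunit. The points run from -0.03 for Rps10 to 0.07 for Rps4l, every interval includes 0, and the widest intervals belong to dim probe sets.

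Genes that make or drive ribosomes gave no call with fluoxetine either. In limma, 0 genes passed an adjusted p under 0.05 in each of 6 lists: other ribosome constituents (3 genes tested), elongation and terminal oligopyrimidine genes (17), initiation factors (29), ribosome assembly and rRNA synthesis (39), regulators such as mTOR and S6 kinases (17), and mitochondrial ribosomal proteins (76). At an unadjusted p under 0.05 the lists held 0, 1, 3, 3, 0 and 5 genes, in the same order, beside 15.3% of all genes tested. Their median differences lay between 0.00082 and 0.01. The smallest p in these lists belonged to Rrp12, a ribosome export factor (0.09, adjusted p = 0.118, limma), and Eif4a1, the helicase that opens messenger RNA starts, was higher with fluoxetine in 22 of 30 strains (0.05, adjusted p = 0.141, limma). Markers of cell types gave 0 calls after adjustment as well. At an unadjusted p under 0.05 they held 5 of 14 cortical neuron markers (2 higher with fluoxetine) and 3 of 8 endothelial markers (0 higher). They also held 2 of 8 astrocyte markers (2 higher), 2 of 10 microglia markers (2 higher) and 2 of 6 neuroblast markers (1 higher). Lymphocyte and choroid plexus markers gave 0 of 2 each. Of oligodendrocyte markers 9 of 10 were held (0 higher), with a median difference of -0.22. The summed level of the oligodendrocyte markers ran from 15.09 to 15.82 on water and from 14.57 to 15.88 on fluoxetine. In bulk cortex, fewer cells of a type and less RNA per cell cannot be told apart. Of 15 cortical neuron markers listed, 14 were tested, with a median level of 12.22, and 0 of 2 red blood cell markers with a probe set passed the filter.

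Differences between strains, unlike those with treatment, were called in nearly every member. Both arrays of a strain stand next to each other in the order of deposit, so a batch they share would count as strain here. In the F-test of limma over the 30 strains, 40 of 43 members passed an adjusted p under 0.05, a share to be read against 88.3% of all genes tested and 90.7% of those at log2 12 or above. The members not called were Rpl12 (adjusted p = 0.197), Rpl39 (0.885) and Rps29 (0.171). The call for Rps29 depended on the setting. It passed with quantile normalization, with no filter on low values and with its probe sets averaged, and Rpl39 passed with quantile normalization. The spread itself was small. The median SD of the strain means was 0.10 over members, against 0.16 over all genes, and 0.10 over all genes at log2 12 or above, so members were no steadier in the median than other bright genes. The smallest SDs were those of Rpl39 (0.02), Rps29 (0.03), Rpl7 (0.05) and Rps28 (0.06). Rps29 lies close to the highest value on the arrays, and Rpl39, a small basic protein that lines the exit tunnel, ranged only from 7.77 to 7.97 over 60 arrays. Many of these arrays held the identical value 7.8422, the median of both groups, so its SD and F-test rest in good part on a repeated value. The bright probe set that lists Rpl39 among several names had a mean of 14.75 and an SD of 0.04.

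**Figure D3:**
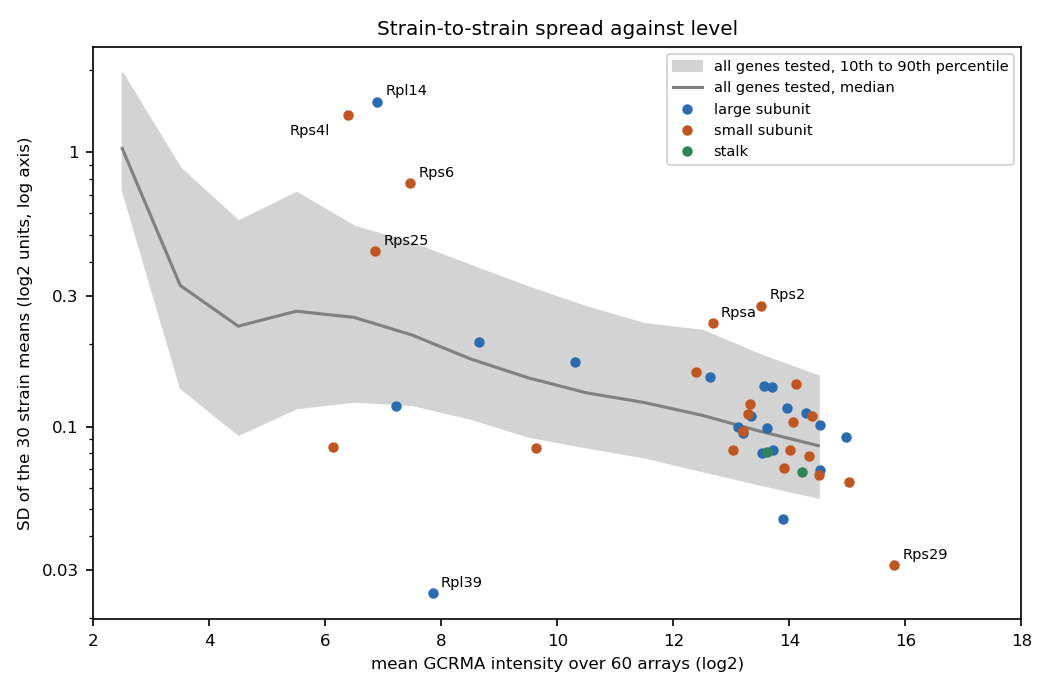
SD of the 30 strain means (log2 units, log axis) against mean intensity (log2) for the 43 ribosomal protein genes (points, coloured by subunit), over the median (line) and the 10th to 90th percentile (grey band) of all genes tested, in steps of 1 log2. By the step that holds each member, 31 of 43 sit inside the band, with Rpl14, Rps4l, Rps6, Rps2 and Rpsa above it and Rpl39, Rpl7, Rpl12, Rps27 and Rps27l below it, and Rps28 and Rps29 beyond its bright end.

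A few members were far from the others in particular strains. A strain was counted as far off when its water array lay at least 1 log2 from the median of the 30 water arrays. Members with such a strain numbered 4 of 43 (13.7% of all genes tested had one, 15% of genes under log2 12 and 2.38% of genes at or above it): Rpl14, Rps4l, Rps6 and Rps25, all of them dim. They gave 32 member and strain pairs, and 29 of the 32 were also at least 1 log2 off, on the same side, on the fluoxetine array of that strain (90.6%, against 67.5% for the pairs of all genes).

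Rpl14, a protein on the outer face of the large subunit, fell into separate levels. Over both arrays, 7 strains (C57BLKS/J, PL/J, C58/J, AKR/J, DBA/2J, BUB/BnJ and CBA/J) lay between 8.55 and 9.29. Another 20 strains lay between 6.35 and 7.16, and BTBRT T(+) tf/J, MRL/MpJ and LG/J lay between 3.04 and 3.92. The 3 ranges do not overlap, and treatment moved no strain from one to another. The lowest value, 3.04, was shared by 3 arrays. The strain F of Rpl14 was 178 (adjusted p = 1.75e-25, limma). The 5 bright probe sets that list Rpl14 with a pseudogene did not show this: the range of their strain means was 0.41 to 0.67, against 6.18 for the Rpl14 probe set. Whether the levels lie in RNA or in the binding of this probe set was not tested, for Rpl14 or for the members that follow.

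Rps6 was low in 9 strains. On water, I/LnJ, P/J, LG/J, A/J, CE/J, 129S1/SvImJ, BALB/cJ, LP/J and DBA/2J lay between 6.02 and 6.57, and the other 21 strains between 6.96 and 8.27. On fluoxetine the same 9 strains lay between 5.64 and 6.96, and the others between 7.02 and 8.41, so the ranges did not overlap within either treatment. DBA/2J was the strain closest to the rest, with 6.57 on water and 6.96 on fluoxetine. The 4 bright probe sets that list Rps6 with a pseudogene had strain ranges of 0.16 to 0.60, against 2.36 for the Rps6 probe set.

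Rps4l, a copy of Rps4x that RefSeq classes as a pseudogene, spread more evenly. It was highest in C57BL/6J (9.08 on water, 8.96 on fluoxetine), C57BR/cdJ (8.62 and 8.46) and C58/J (8.61 and 8.51). RIIIS/J had 2.95 and 3.92, PL/J 3.24 and 4.08, and A/J 3.43 and 3.87. The high 3 and the low 3 strains are apart from the rest, which fill the span between without a gap. C57BLKS/J, a relative of C57BL/6J, was not among the high strains. Rps4x itself, the X-linked gene, had a strain range of 0.29. Rps25, used by viral and some cellular internal ribosome entry sites, was low in LP/J (5.52 and 5.54) and 129S1/SvImJ (5.49 and 5.85), with all other arrays between 6.00 and 7.45. The bright probe set that names Rps25 among others had a strain range of 0.29.

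**Figure D4:**
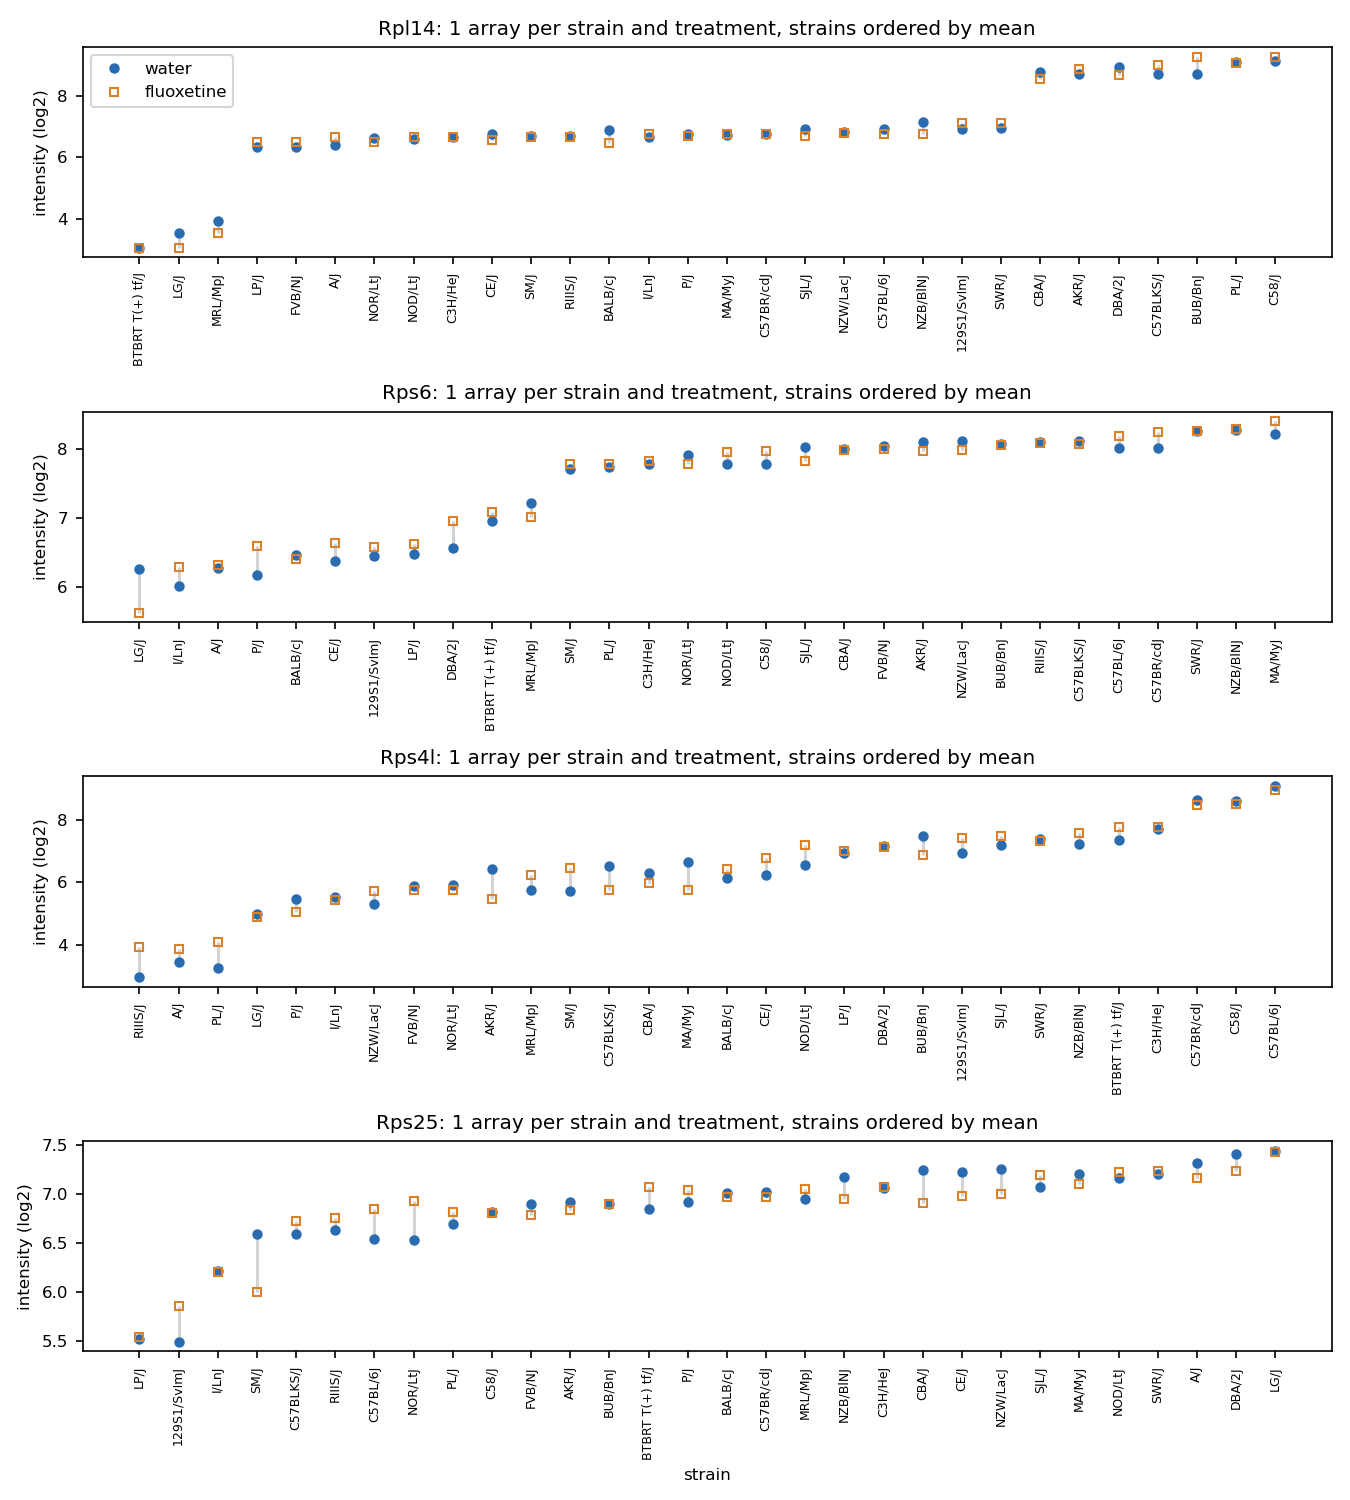
Intensity (log2, vertical axes) of Rpl14, Rps6, Rps4l and Rps25 in each of 30 strains on water (circles) and fluoxetine (squares), 1 array each, with strains ordered by their mean within each panel. Rpl14 shows 3 separate levels, Rps6 9 low strains, Rps4l a gradual series, and Rps25 its lowest values in LP/J and 129S1/SvImJ. Both treatments of a strain mostly stay close together, less so for Rps4l, where their difference had an SD of 0.49 (0.20 to 0.24 for the others).

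Among bright members, Rps2 and Rpsa varied most between strains. Rps2, at the messenger RNA entry of the small subunit, ranged from 12.82 to 14.04 (median 13.54) on water and from 12.93 to 14.05 (median 13.53) on fluoxetine, with an SD of strain means of 0.28 (F = 23.7, adjusted p = 3.54e-13, limma). Rpsa ranged from 11.93 to 13.13 on water and from 12.09 to 13.04 on fluoxetine, with an SD of 0.24 (F = 19.2, adjusted p = 5.88e-12, limma). Both were lowest in I/LnJ, next lowest in C57BLKS/J and highest in CBA/J. I/LnJ had 12.82 and 12.93 for Rps2 and 11.93 and 12.09 for Rpsa, and CBA/J had 14.04 and 14.05, and 13.08 and 13.04. Across the 60 arrays, with each treatment centred, Pearson's r between Rps2 and Rpsa was 0.64, where both arrays of a strain share the genotype. In contrast to Rpl14 and Rps6, the 2 bright probe sets that list Rps2 among several names also varied between strains, with ranges of 1.39 and 1.47. Both were highest in CBA/J (14.79 and 14.10) but lowest in C57BLKS/J (13.40 and 12.63), not in I/LnJ.

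Second probe sets of the same member did not always follow the first. Of 41 further own probe sets that passed the filter, from 19 members, 5 had strain means spanning at least 1 log2. By the brightest probe set of each gene, 6 of 43 members had such a span, against 27.4% of all genes tested. At log2 12 or above it was 2 of 33 members and 6.12% of genes, and under 12 it was 4 of 10 members and 29.9%. These shares are for brightest probe sets and not for further ones. A second Rps9 probe set lay between 6.40 and 7.36 in 22 strains. In C57BL/6J, C57BLKS/J and C58/J it lay near 14, up to 13.99 on the fluoxetine array of C58/J. NZB/BlNJ, SM/J, MRL/MpJ, LG/J and CE/J lay between those ends. The brightest Rps9 probe set, in the same arrays, had strain means spanning 0.65. A second probe set of Rps3, a small subunit protein that also acts in DNA repair, lay between 4.16 and 5.65 in C3H/HeJ, DBA/2J, CBA/J, P/J and I/LnJ and between 7.60 and 8.79 in the other 25 strains, while the brightest Rps3 probe set spanned 0.46. In both genes the brightest probe set did not show the difference. The others of the 5 were 2 of Rpl13a, both lowest in I/LnJ (strain ranges 1.01 and 1.59), and 1 of Rps20 (1.32).

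**Figure D5:**
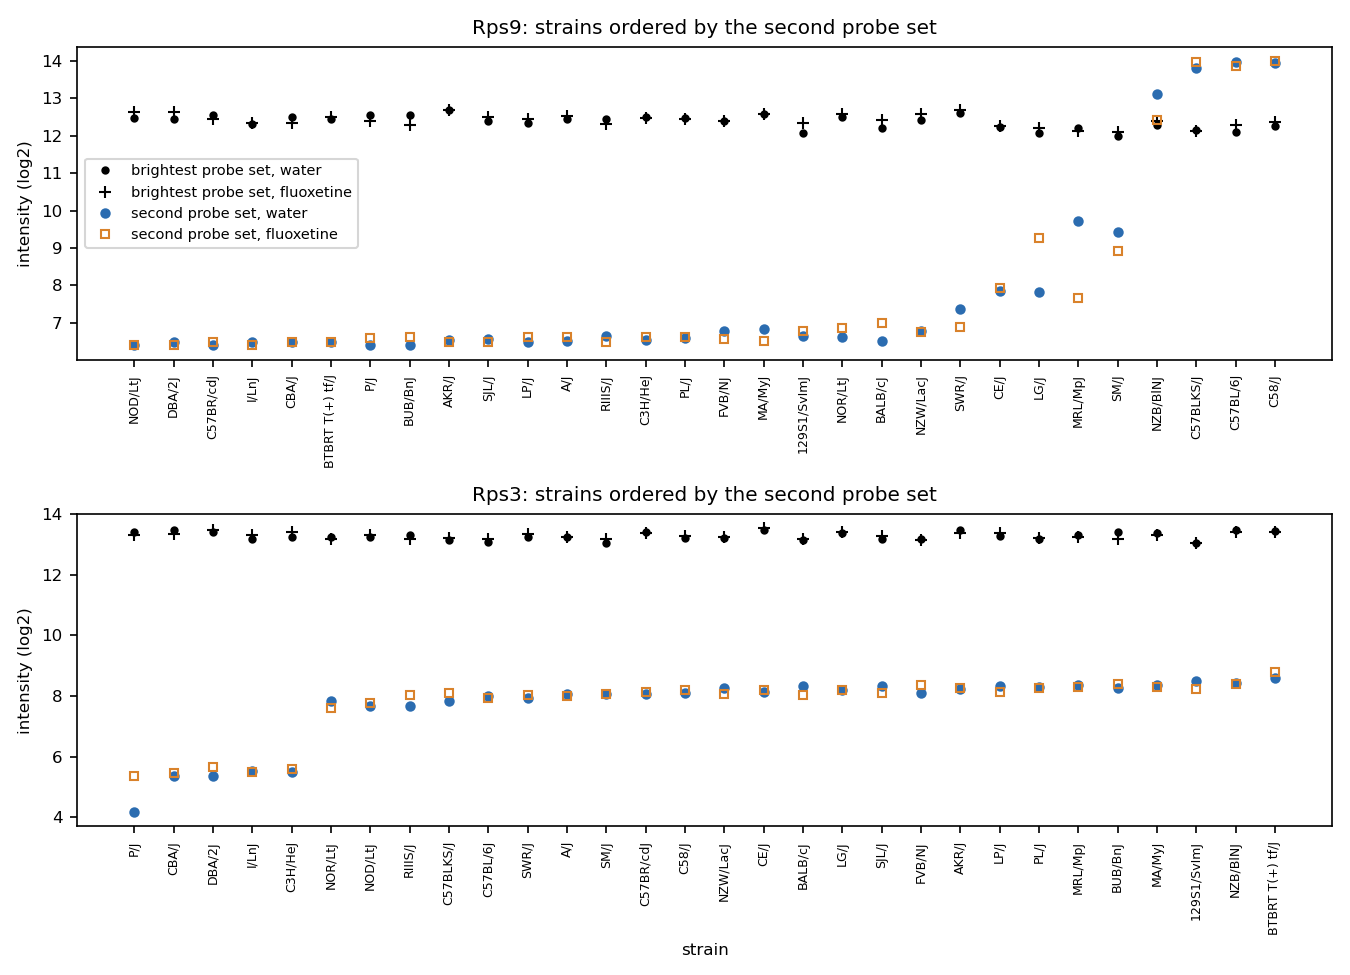
Intensity (log2, vertical axes) of the brightest probe set (black) and a second probe set (coloured) of Rps9 and Rps3 in 30 strains on water and fluoxetine, 1 array each, with strains ordered by the second probe set. The strain means of the brightest sets span 0.65 near 12.4 for Rps9 and 0.46 near 13.3 for Rps3. The second sets separate a few strains from the rest by far more.

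The members also shared a common movement across arrays. Some of it went with the order of deposit, as in Rpl38, whose water arrays lay between 14.10 and 14.27 up to C58/J. From BTBRT T(+) tf/J on they lay at 14.34 or above, except in SJL/J (14.20), I/LnJ (14.22) and NOD/LtJ (14.27). On fluoxetine the Rpl38 ranges were 14.11 to 14.30 and 14.18 to 14.52. A batch along this order cannot be told apart from strain. The mean deviation over all 43 members ran from -0.18 in I/LnJ to 0.14 in C58/J, with an SD of strain means of 0.08, and the 2 arrays of a strain differed with an SD of 0.04. With strains sorted by this mean, 28 of 29 neighbouring steps were smaller than that SD of 0.04. Sorting many strains over a short span makes neighbouring steps small whatever the data, so this count cannot show whether strains differ. Since Rpl14, Rps4l and Rps6 weigh on that mean, it was repeated over the 33 members at log2 12 or above, a choice made after seeing the values. It then ran from -0.13 in I/LnJ to 0.12 in AKR/J, a span of 0.26 (19.3%), with C57BL/6J (-0.11) and 129S1/SvImJ (-0.11) next to the low end and CE/J (0.11) and BTBRT T(+) tf/J (0.09) next to the high end. In I/LnJ, 33 of these 33 members were below their own mean on water and 28 on fluoxetine, and in AKR/J 2 were on each array. These 2 strains are the ends of the mean over the same members, so the counts follow largely from that choice and add no support. The mean level was higher with fluoxetine in 17 strains and lower in 13, with a mean difference of 0.0046. Endothelial markers (8 of 9 tested, summed level 11.54 to 12.30 on water and 11.56 to 12.36 on fluoxetine) moved with this level (r = 0.45 over 60 arrays), and their part in it was not tested. For the other marker lists with tested genes r lay between -0.04 and 0.17, and for the Actb and Gapdh 3' minus 5' differences, a sign of RNA integrity, it was -0.09 and -0.03.

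Over the 60 arrays, the 528 pairs of the 33 brighter members had a median r of 0.45, with 85.6% of pairs above 0, against a median of 0.04 for pairs of all genes at that brightness. Pairs share arrays, normalization, strain and any batch, so these are descriptions. The highest was Rpl6 with Rpl7a (0.92). Rps19 followed the mean of the other members best (0.88). Rpl27 (r = -0.38) and Rps20 (-0.24) ran against it. The probe sets of each differed in this. The next brightest Rpl27 probe set had r = 0.74 and the one after it r = -0.23, and for Rps20 these were 0.34 and -0.40.

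Of genes outside the members, the 8 most like the mean of all 43 members were Tm4sf1 (r = 0.65), Lap3 (0.64), Scara3 (0.62), Cyyr1 (0.61), Tmeff2 (0.61), Tspan6 (0.61), Utp11 (0.59) and Vwc2l (0.59). With the 33 brighter members in place of all 43, the list was another one, led by Nop53 (0.82), a nucleolar protein of large subunit assembly, Eif3h (0.78), a subunit of an initiation factor, Fau (0.75), whose product contains a small subunit protein, and Rps3a1 (0.75), a ribosomal protein gene whose symbol falls outside the rule. Dcaf13 (0.72), Sec11a (0.71), Hpf1 (0.71) and Cwc15 (0.69) followed. At the other end were Gucy1a2 (-0.75) and Hsp90aa1 (-0.73), a cytosolic chaperone.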

How the data were processed

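Cortical RNA of 60 pools (30 strains, water or fluoxetine, RNA of 3 mice each) was measured on Affymetrix arrays. The deposited values are linear intensity per probe set, made by the authors with GCRMA, per the submitters' processing notes; its version is not given in the sources used here. That the scale is linear was read from the range (4.21 to 72334). They were taken as log2 intensity with no further scaling. Of 45101 probe sets, 34945 carried 1 gene symbol, 932 several (assigned to no gene) and 9160 none. Tests used limma 3.58.1 in R 4.3.3 over 11886 genes, blocked on strain, and p-values were adjusted by Benjamini-Hochberg over all of them; tables were made with Python 3.11.15, numpy 2.4.6 and pandas 2.3.3. On simulated data the fluoxetine fit called 99 of 100 genes changed by 0.5 log2 and 14 of 11686 unchanged ones. The simulated noise was independent between genes. A change of 0.5 is far above the largest member difference (0.07), so this does not cover changes of that size. Pairing by strain comes from the labels, and both arrays of a strain deviated together (r from 0.52 to 0.85). The number of arrays limits the precision; scan batches were not given and not tested.

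Named genes were those of known role, the 5 brightest and 5 dimmest, the 6 most and 4 least variable between strains, the 4 largest rises and 4 largest falls with fluoxetine, every member with a strain far off or failing the filter, at most 3 genes per comparison list, and the 8 genes most like the members' mean; others were named after their values were seen. The members and lists were chosen with earlier results of these data known. Alternatives were the block, the filter, the averaging of probe sets, centring, quantile normalization, Actb and Gapdh covariates and leaving out each strain.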

Additional observations from a re-analysis of the deposited data

How the results depend on the processing

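The count of members called with fluoxetine was 0 in all 7 alternative fits, including the one with no replicate block, and in each of the 30 fits that left out 1 strain; the same holds for the 6 comparison lists. The median difference over members stayed between 0.0013 and 0.0052 in the alternative fits, and between 0.00084 and 0.0066 without 1 strain. Of the 8 members named for their fluoxetine difference, signs turned for Rps9 (-0.0039) and Rps7 (0.0035) when all probe sets of a gene were averaged. Their other own probe sets differed the other way, by -0.05 and -0.0019 for Rps9 and by 0.02 for Rps7. For Rps9 these say little on the sign. The probe set with -0.05 is the one that splits the strains, and its differences had an SD of 0.52. The one with -0.0019 had a mean of 2.55, near the floor of the data, and failed the filter. Why the probe sets of a gene differ was not tested. The count of members called between strains was 35 to 41 in the alternative fits and 38 to 40 without 1 strain. Of the 32 strain deviations, 31 remained with arrays centred on the median, and 0 were seen in another probe set of the same member alone, which says nothing, since only Rps6 has one and it lies near the floor of the data, where its 9 low strains could not show. They numbered 0 in a bright probe set listing the member among several names (21 had one), an alternative added after seeing the data. The span of the strain means of 0.31 became 0.26 over the members at log2 12 or above and 0.21 for the median over members, both added after seeing the data. Dim probe sets and probe sets shared with pseudogenes limit what can be said of single members.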
